A study of Arabidopsis thaliana with 12 samples.

Results

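The 6 genes described here encode stress-responsive C2H2 zinc finger proteins of the ZAT family: *STZ* (AT1G27730, also called *ZAT10*), *ZAT12* (AT5G59820), *ZAT6* (AT5G04340), *ZAT11* (AT2G37430), *AZF1* (AT5G67450) and *AZF2* (AT3G19580). They were picked by name from the 40215 gene models of the transcript table because of their levels in these libraries, so their levels and their differences between groups are given as a description and not as a test. RNA was sequenced from *Arabidopsis thaliana* of ecotype Col-0 at day 4 under long days (16 h of light and 8 h of dark, 22 °C, 100 μmol photons m-2 s-1) on half-strength MS medium with 1% sucrose and without an inhibitor. Groups of 3 libraries each came from the wild type (Col-0) and from the mutant *gun1-102*, a single T-DNA insertion allele in the Col-0 background, sorted by the color of the cotyledons: *gun1W* was white, *gun1M* marbled and *gun1G* green. Below, the white, marbled and green groups are always these mutant groups. GUN1 is a plastid pentatricopeptide repeat protein that acts in signaling from the plastid to the nucleus. The 3 mutant groups therefore share the allele and were separated from each other by their appearance. The table's headers call the replicates biological, and the sources used here do not say whether they came from separate sowings.

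Proteins of this family carry a pair of C2H2 zinc fingers, each with the plant-specific core QALGGH that contacts DNA, and most carry an EAR motif, a short stretch through which a transcription factor recruits co-repressors of the TOPLESS family. Their genes are known as fast responders to cold, salt, drought, strong light, wounding and hydrogen peroxide, in seedlings as in leaves. STZ and ZAT6 are described as substrates of stress-activated MAP kinases, ZAT12 as a factor needed for the induction of the cytosolic ascorbate peroxidase gene *APX1* under oxidative stress, ZAT11 as a promoter of cell death triggered by oxidants, and AZF1 and AZF2 as repressors of abscisic acid-repressed and auxin-inducible genes.

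The first zinc finger of each member is shown because it is the feature that defines the family, from the codon of the first zinc-binding cysteine to that of the last histidine. Each sequence is the coding strand of 63 bases read from the RefSeq assembly TAIR10.1, with the codons of the QALGGH core in capitals.
STZ: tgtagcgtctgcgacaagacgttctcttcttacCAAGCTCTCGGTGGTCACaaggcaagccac
ZAT12: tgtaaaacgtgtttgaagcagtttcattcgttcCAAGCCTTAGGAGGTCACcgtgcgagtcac
ZAT6: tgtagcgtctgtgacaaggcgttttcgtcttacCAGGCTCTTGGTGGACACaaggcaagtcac
ZAT11: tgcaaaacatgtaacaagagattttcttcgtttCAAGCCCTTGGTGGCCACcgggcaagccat
AZF1: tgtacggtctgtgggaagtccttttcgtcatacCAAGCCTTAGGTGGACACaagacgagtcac
AZF2: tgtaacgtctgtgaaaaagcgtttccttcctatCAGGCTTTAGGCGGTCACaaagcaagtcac
All 6 genes had 2 such cores, and the letters DLN, which begin the EAR motif of many members, were found behind the second core in 5 of 6, with ZAT12 as the exception. ZAT12 held the letters LNL, which were also searched, at residue 151 behind its second core. The lack of DLN therefore does not show that ZAT12 has no EAR motif. Of the members 5 were annotated with 1 exon and *AZF2* with 2 exons, and no other annotated gene overlapped any of them. In TAIR10.1 *STZ* lies on chromosome 1 (9648021 to 9649323, minus strand), *ZAT11* on chromosome 2 (15706285 to 15707224, plus strand) and *AZF2* on chromosome 3 (6802903 to 6804296, minus strand). Chromosome 5 holds *ZAT6* (1216058 to 1217362, minus strand), *ZAT12* (24102814 to 24103794, plus strand) and *AZF1* (26918765 to 26920179, minus strand). The encoded proteins run from 162 residues (ZAT12) to 273 (AZF2), and of the 15 pairs STZ and ZAT6 were the most alike, with 75.6% of aligned residues the same against 31.1% to 53.7% in the other 14 pairs.

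Levels are given as scaled TPM, which is TPM (transcripts per 1000000 transcripts) summed over the transcripts of a gene and multiplied by 1 factor per library. The factor sets to 0 the median log2 ratio of a library to the average library over 12490 nuclear genes. Factors ranged over 1.21 to 1.34 in Col-0, 0.538 to 0.691 in white *gun1* libraries, 0.908 to 1.16 in marbled ones and 1.16 to 1.27 in green ones, and depth is not known from TPM. *GUN1* itself stood at 44.0 to 46.4 scaled TPM in Col-0, 25.7 to 39.3 in the white group, 24.5 to 36.1 in the marbled group and 20.4 to 29.7 in the green group. In the TPM as deposited, however, *gun1W* lay at 47.7 to 56.9 for *GUN1*, above the 32.9 to 38.0 of Col-0. These sums do not separate transcript before the insertion from transcript after it. The study reported that reads were absent from part of an early exon and from all later exons of *GUN1* in every mutant group. The sums are therefore no measure of intact *GUN1* transcript. The model AT3G06365 alone took 5.71% to 8.46% of the deposited TPM in Col-0, 4.02% to 19.5% in white *gun1* libraries, 0.745% to 10.5% in marbled ones and 0.219% to 4.70% in green ones. The labels give cotyledon as the tissue whereas the study's text speaks of seedlings, so which tissue the levels refer to is uncertain. Here the 5 cotyledon markers summed to 16180 to 39432 scaled TPM over the 12 libraries, with the lowest sums in *gun1W* (16180 to 19273). These markers, *RBCS1A*, *CA1*, *CAB3*, *DRT112* and *RCA*, are nuclear genes for photosynthesis. The study used *CA1* as a marker of signaling from the plastid. Less cotyledon tissue and a lower level per cell in bleached tissue therefore cannot be told apart by this sum. The 5 root markers summed to 849 to 930 scaled TPM in Col-0 and 952 to 1079 in the mutant groups, but nearly all of this was *PYK10* (819 to 900 in Col-0 and 929 to 1056 in the mutant groups). Of the others *COBL9* had a mean of 8.25 in the wild type and of 5.94, 4.29 and 4.69 in the white, marbled and green groups, and *NRT2.1* reached at most 0.469 in any library. By the rule given below, none of the 4 root markers tested was called against Col-0. Without the fold limit, 1 of them was lower in *gun1M*. Of the 5 cotyledon markers, 1 was called lower in *gun1W* than in Col-0, against 4.31% of all models. In *gun1W* against *gun1G* 3 of them were called lower, as were 357 of the 18373 models. With so few genes nothing is read from these counts. The 4 shoot meristem markers summed to at most 6.54, and the 4 seed reserve markers to at most 13.9 except in *gun1W* replicate 1 with 30.0. The part of tissue make-up in the results below was not tested.

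*STZ* was nearly silent in the wild type and high in all mutant libraries. Its levels were 0.929, 0.762 and 0.534 scaled TPM in the Col-0 replicates 1, 2 and 3, 31.7, 37.1 and 27.3 in the white group, 43.3, 23.9 and 24.6 in the marbled group, and 26.2, 32.1 and 22.1 in the green group. Every mutant library lay above every Col-0 library, and the ranges of the 3 mutant groups overlapped each other. The means were 0.742 ± 0.198 (SD, n = 3) in Col-0, 32.1 ± 4.90 in white *gun1* libraries, 30.6 ± 11.04 in marbled ones and 26.8 ± 5.03 in green ones, so that the ratio of means to Col-0 was 43.2, 41.2 and 36.1. In bulk RNA, more cells that express the gene and more RNA per cell cannot be told apart. At this scaling the mutant groups differed little from each other: the log2(scaled TPM + 1) difference was 0.26 ± 0.23 (SE) for the white and 0.15 ± 0.23 for the marbled group, each against *gun1G*. In the TPM as deposited, *STZ* was at 45.9, 61.5 and 50.8 in *gun1W* and at 22.5, 26.3 and 17.5 in *gun1G*. The difference there was 1.23, while the median over all models was 0.80 in the same comparison.

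*ZAT12* was also low in the wild type, but within the mutant its level was higher in the white and marbled groups than in the green group. It stood at 1.31, 1.03 and 0.149 scaled TPM in Col-0, 21.9, 51.2 and 37.6 in white *gun1* libraries, 12.7, 12.3 and 25.2 in marbled ones, and 7.38, 10.7 and 6.96 in green ones. All *gun1M* and *gun1W* libraries lay above all *gun1G* libraries, which in turn lay above all Col-0 libraries, while *gun1W* and *gun1M* overlapped. The means were 0.828 ± 0.605 (SD, n = 3), 36.9 ± 14.7, 16.7 ± 7.32 and 8.36 ± 2.06 in Col-0, *gun1W*, *gun1M* and *gun1G*, and the ratio of means to Col-0 was 44.6, 20.2 and 10.09 in the mutant groups.

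*ZAT6*, the closest relative of *STZ* in sequence, did not share its even level over the mutant groups. Its levels were 3.30, 1.79 and 0.806 scaled TPM in Col-0, 14.0, 52.2 and 47.0 in the white group, 22.0, 48.0 and 38.8 in the marbled group, and 20.2, 12.04 and 11.4 in the green group. The *gun1M* libraries all lay above the *gun1G* libraries, whereas replicate 1 of *gun1W* fell within the range of *gun1G*. The means were 1.97 ± 1.26 (SD, n = 3), 37.7 ± 20.7, 36.3 ± 13.2 and 14.5 ± 4.88 in the same order of groups, which gave ratios to Col-0 of 19.2, 18.5 and 7.40.

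*ZAT11* was the least abundant member in the wild type and separated the white and marbled from the green mutant group. It was listed at 0 in Col-0 replicates 1 and 3 and at 0.444 scaled TPM in replicate 2. The *gun1W* libraries held 2.40, 4.47 and 2.73 scaled TPM, the *gun1M* libraries 3.26, 3.58 and 4.60, and the *gun1G* libraries 0.523, 0.887 and 0.945. The green mutant libraries thus lay just above the highest Col-0 library, and all white and marbled libraries lay above the green ones. No fold is given against a group with libraries listed at 0, and the differences of log2(scaled TPM + 1) from Col-0 were 1.86 in *gun1W*, 2.08 in *gun1M* and 0.65 in *gun1G* (SE 0.22 each).

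*AZF2* was the most abundant member in the wild type, whereas *AZF1* was about as low there as *ZAT6*. *AZF2* was even over the Col-0 replicates, at 15.6, 16.1 and 15.5 scaled TPM, and stood at 87.0, 34.4 and 28.3 in white *gun1* libraries, 55.5, 20.1 and 25.7 in marbled ones, and 48.2, 51.5 and 42.9 in green ones. All mutant libraries lay above all Col-0 libraries, and *gun1G*, with 47.5 ± 4.36 (SD, n = 3), was far tighter than *gun1W* with 49.9 ± 32.3 and *gun1M* with 33.8 ± 19.0. The ratios of means to the Col-0 level of 15.7 ± 0.336 were 3.17, 2.15 and 3.02. *AZF1* was low throughout, with 1.49, 1.54 and 1.72 scaled TPM in Col-0, 3.25, 2.53 and 1.54 in the white group, 5.40, 1.58 and 2.58 in the marbled group, and 2.60, 2.40 and 1.54 in the green group. Its ranges overlapped between all groups, and replicate 1 of *gun1M* exceeded every other library.

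**Figure D1:**
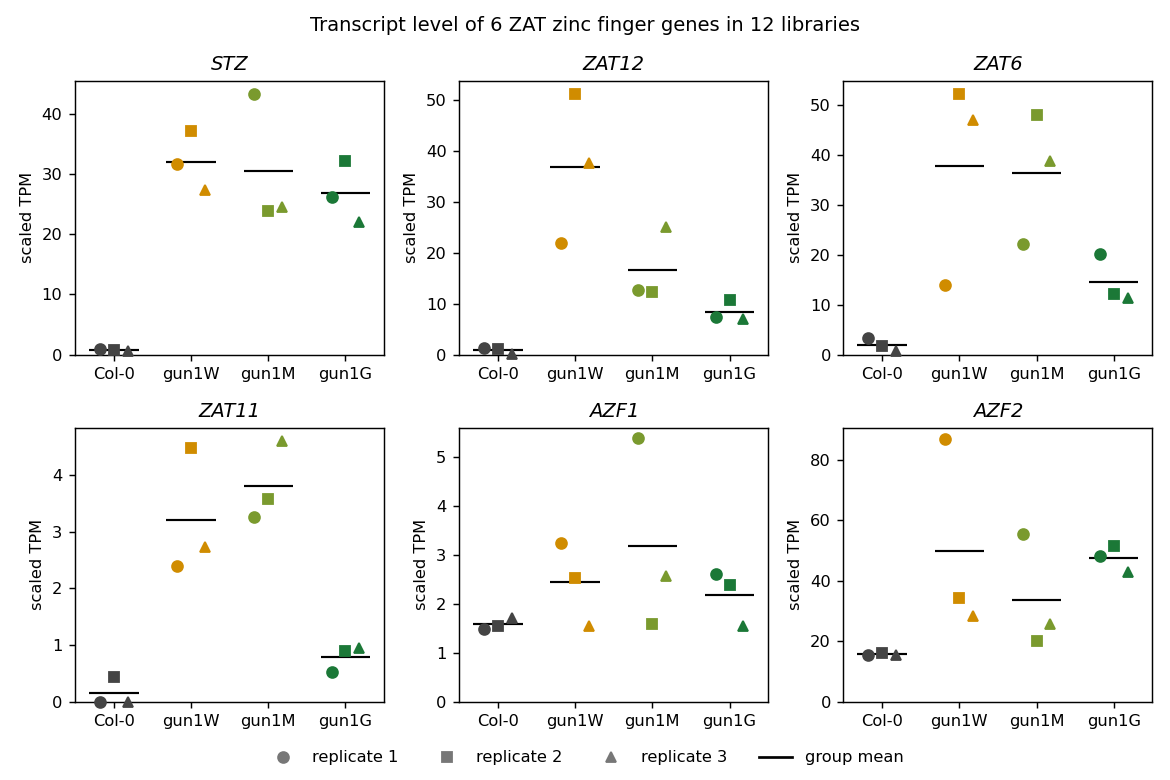
Scaled TPM (linear axis from 0) of the 6 genes in each of the 12 libraries, with 1 panel per gene, a marker shape per replicate number and a line at the group mean. The mutant libraries sit above Col-0 in every panel but that of *AZF1*. At this scaling *STZ* is level over the mutant groups, whereas *ZAT12*, *ZAT6* and *ZAT11* are lowest of the mutant groups in *gun1G*.

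Over all genes, a gene was called where limma gave a Benjamini-Hochberg adjusted p under 0.05 over the 18373 models tested and the difference was at least 2-fold. By that rule 5 of the 6 members were higher than Col-0 in *gun1W* (all but *AZF1*), 4 in *gun1M* (*STZ*, *ZAT12*, *ZAT6* and *ZAT11*) and 4 in *gun1G* (*STZ*, *ZAT12*, *ZAT6* and *AZF2*), and none was lower. Among all models tested, 7.54%, 7.64% and 3.09% were called higher in the same comparisons, and 4.31%, 5.34% and 1.48% lower; nothing is read from the members' counts, since the members were chosen on these levels. In each of the 3 comparisons 5 of 6 members had all mutant libraries above all Col-0 libraries, as did 23.6%, 22.4% and 18.8% of all models. The median difference of log2(scaled TPM + 1) over the members was 2.73 in white *gun1* libraries, 2.67 in marbled ones and 1.96 in green ones, and the median over all models was within 0.01 of 0. The scaling holds that median over all models near 0 by design. The 3 comparisons share the Col-0 libraries. The calls of *AZF2* hung on single libraries: in *gun1W* the difference was 1.43 ± 0.40 (SE) with all libraries and 0.94 and no longer called without *gun1W* replicate 1, and it also lost its call at 1.42 without Col-0 replicate 1 or 3. In *gun1G* its difference of 1.53 ± 0.40 lost its call without any 1 of the Col-0 or *gun1G* libraries, at 1.47 to 1.60. Without *gun1G* replicate 1 the call of *ZAT6* in *gun1G* (2.44 ± 0.48) was lost as well, at 2.19.

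**Figure D2:**
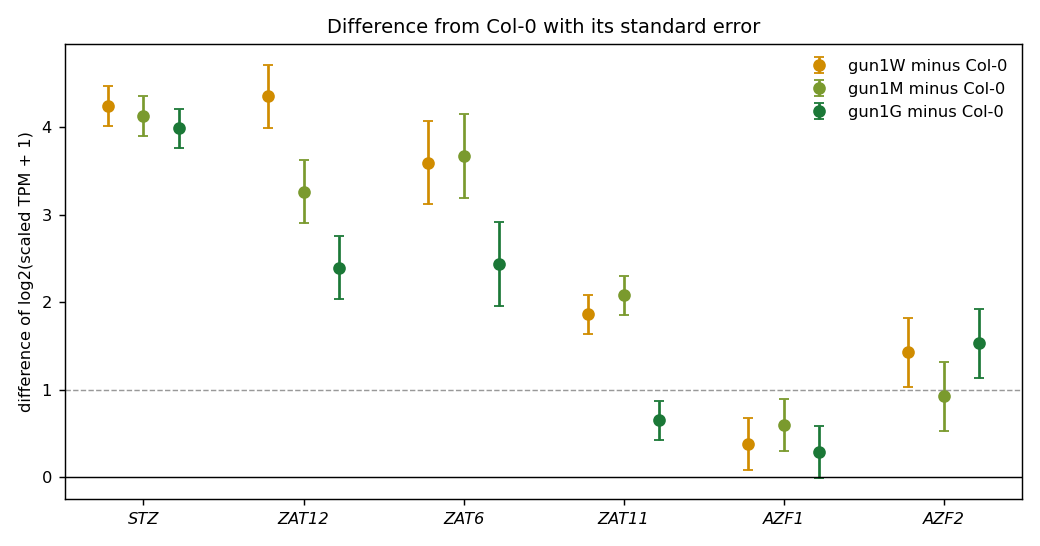
Difference of log2(scaled TPM + 1) from Col-0 for the 6 genes in *gun1W*, *gun1M* and *gun1G*, with bars of 1 standard error from the fit over all genes and a dashed line at a 2-fold difference. *STZ* stands at 4.24, 4.13 and 3.99, whereas *ZAT12* goes from 4.36 in *gun1W* to 3.26 in *gun1M* and 2.40 in *gun1G*.

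Within the mutant, 2 members were called higher in *gun1W* than in *gun1G*, *ZAT12* with a difference of 1.96 ± 0.36 (SE) and *ZAT11* with 1.21 ± 0.22, against 3.06% of all models. These 2 also had all *gun1W* libraries above all *gun1G* libraries, as did 16.9% of all models. In *gun1M* against *gun1G* only *ZAT11* was called, with 1.43 ± 0.22, against 1.35% of all models, and *ZAT12* and *ZAT6* had ranges that did not overlap as well, with differences of 0.87 ± 0.36 and 1.24 ± 0.48; 12.2% of all models had all *gun1M* libraries above. Between *gun1W* and *gun1M* no member was called by limma (1 at an unadjusted p under 0.05) and no member had separate ranges, and 0.0435% of all models were called higher and 7.16% had all libraries higher in *gun1W*. The largest difference there was that of *ZAT12*, at 1.09 ± 0.36. The order of the group means was *gun1W*, *gun1M*, *gun1G* and Col-0 for *STZ*, *ZAT12* and *ZAT6*, and *gun1M*, *gun1W*, *gun1G* and Col-0 for *ZAT11*. *AZF2* broke this order, with the *gun1G* mean above that of *gun1M*. The *ZAT11* calls within the mutant were lost where 0.1 or 5 was added before the log in place of 1.

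Summed over the 6 genes, the level was 18.7 to 22.6 scaled TPM in Col-0, 145 to 182 in the white group, 109 to 142 in the marbled group and 85.9 to 110 in the green group. The make-up of that sum also differed between the groups. In Col-0 *AZF2* supplied 68.9%, 74.4% and 82.9% of the sum and *STZ* 2.85% to 4.11%. In *gun1G* the sum was again even between replicates, with 45.9% to 49.9% from *AZF2* and 24.9% to 29.3% from *STZ*. In *gun1W* and *gun1M*, however, the replicates of a group differed: *AZF2* supplied 54.3%, 18.9% and 19.6% in the *gun1W* replicates 1, 2 and 3, and 39.0%, 18.4% and 21.2% in those of *gun1M*. *ZAT6* did the reverse, with 8.72%, 28.7% and 32.5% in *gun1W* and 15.5%, 43.9% and 31.95% in *gun1M*.

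**Figure D3:**
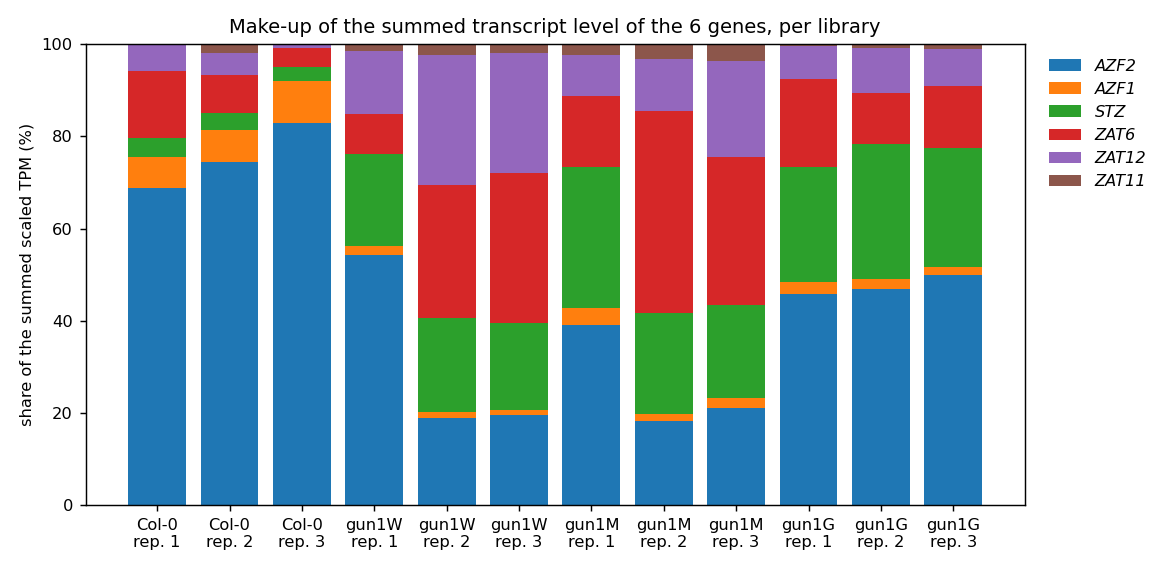
Share of each gene in the summed scaled TPM of the 6 genes (%), with 1 bar per library. *AZF2* makes up 68.9% to 82.9% of the Col-0 bars and 45.9% to 49.9% of the *gun1G* bars, whereas replicate 1 of *gun1W* and of *gun1M* stands apart from the other replicates of its group.

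Replicate 1 of *gun1W* and replicate 1 of *gun1M* deviated in the same direction for several members. Relative to the group mean of log2(scaled TPM + 1), *AZF2* was at +0.97 in *gun1W* replicate 1 and +0.83 in *gun1M* replicate 1, and *AZF1* at +0.34 and +0.72. In the same libraries *ZAT6* was at -1.17 and -0.63 and *ZAT12* at -0.65 and -0.30. *AZF2*, *AZF1* and *ZAT6* thus stood apart in replicate 1 of both groups. *ZAT12* did so in *gun1W* but not in *gun1M*, where it was lowest in replicate 2 (-0.34), the library in which *AZF1* and *AZF2* were lowest too, each at -0.59. *ZAT11* was also lowest in replicate 1 of *gun1W* (-0.27) and of *gun1M* (-0.17). *STZ* was high in replicate 1 of *gun1M* (+0.54) but at -0.004 in replicate 1 of *gun1W*. Both libraries carry replicate number 1, but replicate 1 of *gun1G* showed neither shift for *AZF2* (+0.02) nor a low *ZAT6* (+0.49). The joint shift was not limited to the members. Over all models tested, the deviations of replicate 1 of *gun1W* and of *gun1M* had r = 0.31, the highest of the 18 same-number pairs. With unlike numbers, replicate 3 of *gun1W* and replicate 2 of *gun1M* had r = 0.45. The share of AT3G06365 was 19.5% in *gun1W* replicate 1, the highest of all libraries, but 1.16% in *gun1M* replicate 1, and the plastid share of the deposited TPM was 9.29% and 34.6%. All 4 seed reserve markers were highest within *gun1W* in replicate 1, such as *SESA3* with 9.79 scaled TPM against 0.459 and 0.367 and *CRC* with 7.44 against 0.530 and 0.443, whereas replicate 1 of *gun1M* held 1.75 of *SESA3* and 0.699 of *CRC*. The part of these library properties in the deviations was not tested.

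**Figure D4:**
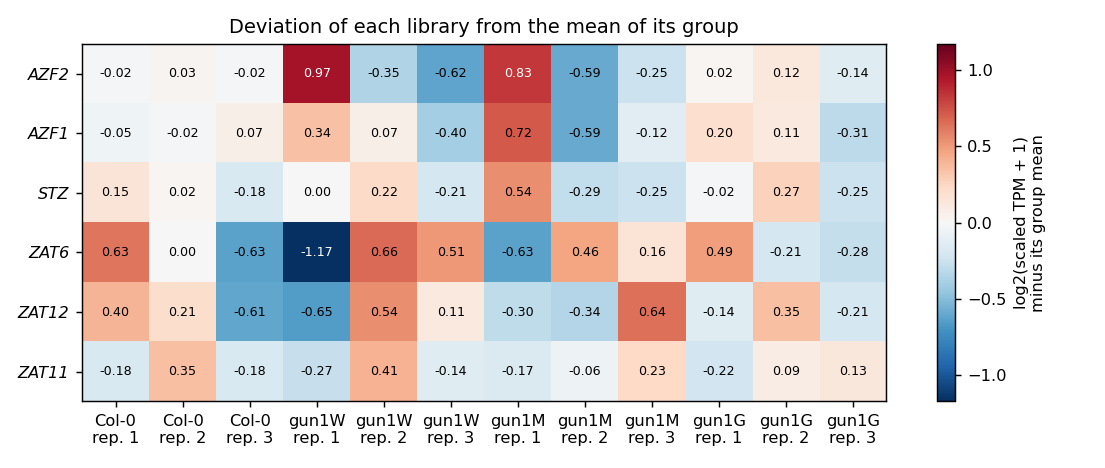
Deviation of log2(scaled TPM + 1) from the mean of its group (color and printed value) for the 6 genes in the 12 libraries. *AZF2* and *AZF1* are highest and *ZAT6* lowest in replicate 1 of *gun1W* and of *gun1M*, whereas *ZAT12* is lowest in replicate 1 of *gun1W* (-0.65) and replicate 2 of *gun1M* (-0.34).

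*AZF2* was the member with more than 1 transcript at a mean TPM of at least 1, and the share of its leading transcript, AT3G19580.3, was not used to choose it. That share was 95.6%, 100% and 98.2% in Col-0 (97.9% ± 2.21, SD, n = 3), 97.0%, 90.4% and 99.8% in white *gun1* libraries, 98.5%, 78.4% and 95.8% in marbled ones, and 95.0%, 93.6% and 94.6% in green ones. The 3 *gun1G* libraries all lay below the 3 Col-0 libraries, by 3.52 percentage points in the mean. By an exact two-sided permutation test, for which 0.1 is the smallest p that 3 against 3 libraries allow, p was 0.1 in *gun1G* (adjusted 0.3 over 3 tests), 0.5 in *gun1M* and 0.6 in *gun1W*. The same transcript led in every library, so the higher *AZF2* level of the mutant groups was carried by AT3G19580.3.

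Other genes of the same subfamily, called C1-2i, gave a mixed picture. This list and those below were drawn up with earlier results of these data known. The genes named from them were mostly those with the smallest adjusted p against Col-0. Their counts and adjusted p are therefore given as a description and not as an independent test. Of 11 listed genes 6 passed the filter on low values, of which 2 were called higher in *gun1W*, 1 higher and 1 lower in *gun1M*, and 1 lower in *gun1G*. Of all models tested, 7.54%, 7.64% and 3.09% were called higher in *gun1W*, *gun1M* and *gun1G*, and 4.31%, 5.34% and 1.48% lower. With 6 genes tested, nothing is read from these counts. *ZAT7* (AT3G46090), tied to salt tolerance, was listed at 0 in all Col-0 libraries and held 6.54, 12.1 and 10.9 scaled TPM in the white group, 5.39, 5.37 and 14.8 in the marbled group, and 0.509, 0.104 and 0 in the green group. White and marbled libraries were therefore all above green ones, by 3.16 ± 0.33 (SE) and 2.86 ± 0.33 on the log2(scaled TPM + 1) scale, with limma adjusted p of 0.00017 and 0.0013. AT3G46080 was likewise listed at 0 in Col-0 and held 0.387, 14.7 and 11.7 scaled TPM in the white group, 0.337, 2.01 and 7.54 in the marbled group, and 0.110 to 0.562 in the green group. Its value, like that of *ZAT6*, was lowest in replicate 1 of *gun1W* and of *gun1M*, and its call in *gun1W* did not survive leaving out any 1 Col-0 library, or *gun1W* replicate 2 or 3. The coding sequences of *ZAT7* and AT3G46080 share 93.6% of aligned bases, so the division of reads between them is uncertain. AT2G28200 went the other way, from 14.5 ± 0.617 scaled TPM (SD, n = 3) in Col-0 to 5.99 ± 1.43 in the marbled group and 6.66 ± 1.22 in the green group, with limma adjusted p of 0.00083 and 0.0058, the second of which lost its call without *gun1G* replicate 1 (-0.90). *AZF3* was at 4.48 scaled TPM in Col-0, 7.87 in white *gun1* libraries, 5.11 in marbled ones and 2.26 in green ones, was not called against Col-0 with all libraries at the settings used here, but was called in *gun1G* (-1.03) without Col-0 replicate 3 and in *gun1W* (1.66) with the TPM as deposited, and was called higher in *gun1W* than in *gun1G* (1.47 ± 0.28, limma adjusted p = 0.0060).

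Transcription factor genes known to be induced within minutes by the same stimuli were mostly higher as well. Of 20 listed genes, all tested, 15 were called higher and 1 lower in the white group, with the same counts in the marbled group, and 12 higher and 0 lower in the green group, with medians of 1.70, 1.57 and 1.89. The shares of all models were 7.54%, 7.64% and 3.09% higher, and 4.31%, 5.34% and 1.48% lower. *CZF1* and *SZF1*, which encode CCCH zinc finger proteins of the salt and defense response, differed from Col-0 by 2.96 ± 0.25 (SE) and 3.40 ± 0.43 in *gun1W*, with limma adjusted p of 1.5e-05 and 0.00023. *CZF1* stood at 3.99 ± 0.915 scaled TPM (SD, n = 3) in Col-0, 38.1 ± 8.34 in the white group, 39.9 ± 4.92 in the marbled group and 17.5 ± 6.30 in the green group, and it was called higher in the white and the marbled than in the green group (limma adjusted p = 0.013 and 0.022). *ERF6*, which encodes an ethylene response factor, differed from Col-0 by 2.90, 2.73 and 2.57 in the 3 mutant groups (SE 0.37), and *MYB44* by 1.36, 1.29 and 0.70 (SE 0.18), the last of which missed the 2-fold limit. The called gene that was lower was *RAV1*, singled out after its values were seen, with -1.29 ± 0.34 in *gun1W* and -1.75 ± 0.34 in *gun1M*.

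Genes for the MAP kinase cascade upstream of ZAT proteins had medians of 0.82, 1.02 and 0.41. Of 9 listed genes 3 were called higher in white *gun1* libraries, 5 in marbled ones and 2 in green ones, and none lower, and in the green group none was called without Col-0 replicate 1 or *gun1G* replicate 1, while without *gun1W* replicate 1 the white group had 5. Over all models the shares were 7.54%, 7.64% and 3.09% higher, and 4.31%, 5.34% and 1.48% lower. *MKK4*, which encodes a kinase that activates MPK3 and MPK6, was at 1.48, 2.29 and 2.04 scaled TPM in Col-0, 4.84, 7.68 and 10.5 in the white group, 10.3, 13.7 and 8.47 in the marbled group, and 5.88, 5.60 and 5.02 in the green group. It was called in all 3 comparisons, as was *MKK9*, with 1.56, 1.48 and 1.39 (SE 0.30). The *MKK4* relative *MKK5* differed by 0.97, 1.02 and 0.55 (SE 0.13), of which only the value of *gun1M* passed the 2-fold limit. *MPK11* had a mean of 0.0919 scaled TPM in the wild type and of 0.997, 2.15 and 0.254 in the white, marbled and green groups. It was called in *gun1M*, and in *gun1W* its difference of 0.82 was under the 2-fold limit but was called at 1.09 without *gun1W* replicate 1, at 1.24 with the TPM as deposited and at 2.44 with 0.1 added before the log. The 8 genes for the EAR co-repressors were not called in any comparison with Col-0 by limma, with or without its trend. With 8 genes and the shares of all models just given, nothing is read from the absence of calls. At an unadjusted p under 0.05, 3 were higher in *gun1W*, 3 higher and 1 lower in *gun1M* and 1 higher in *gun1G*, and at an adjusted p under 0.05 without the fold limit *TPR3* (0.84 ± 0.17), *TPR4* (0.49 ± 0.13) and *TPL* (0.54 ± 0.19) were higher and *HDA19* (-0.77 ± 0.23), a histone deacetylase gene, was lower in *gun1M*.

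Genes for reactive oxygen and metal responses tied to ZAT factors were called in all mutant groups. Of 17 listed genes 14 were tested, of which 6 were called higher in white *gun1* libraries, 6 in marbled ones and 2 in green ones, and none lower. For all models the shares were 7.54%, 7.64% and 3.09% higher, and 4.31%, 5.34% and 1.48% lower. *APX1* rose from 76.6 ± 10.097 scaled TPM (SD, n = 3) in Col-0 to 331 ± 105 in *gun1W* and 207 ± 63.0 in *gun1M*, with limma adjusted p of 0.00027 and 0.0034, and stood at 147 ± 25.5 in *gun1G*, just under the 2-fold limit. *APX2*, a second cytosolic ascorbate peroxidase gene known for its response to excess light, was listed at 0 in 2 Col-0 libraries and all 3 *gun1G* libraries, and held 3.07, 11.1 and 12.7 scaled TPM in *gun1W* and 3.68, 7.17 and 11.7 in *gun1M*. *APX2* thus shared with *ZAT7* the near absence from Col-0 and *gun1G*. *BAP1*, which encodes a membrane-associated inhibitor of cell death, was high in all mutant groups, at 1.11 ± 0.856 in Col-0, 6.65 ± 1.47 in the white group, 8.60 ± 1.03 in the marbled group and 9.96 ± 3.01 in the green group, and was called in all 3 comparisons. The other gene called in *gun1G*, *PCS1* (phytochelatin synthase, named after its values were seen), was at 1.23 there and lost its call without any 1 of the Col-0 libraries, *gun1G* replicate 1 or 2, or *gun1W* replicate 2. AT1G05340 differed by 0.97, 0.80 and 0.09 (SE 0.16) and was not called at the settings used here. With equal nuclear totals it was called at 1.22 in *gun1W* and at 1.02 in *gun1M*.

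**Figure D5:**
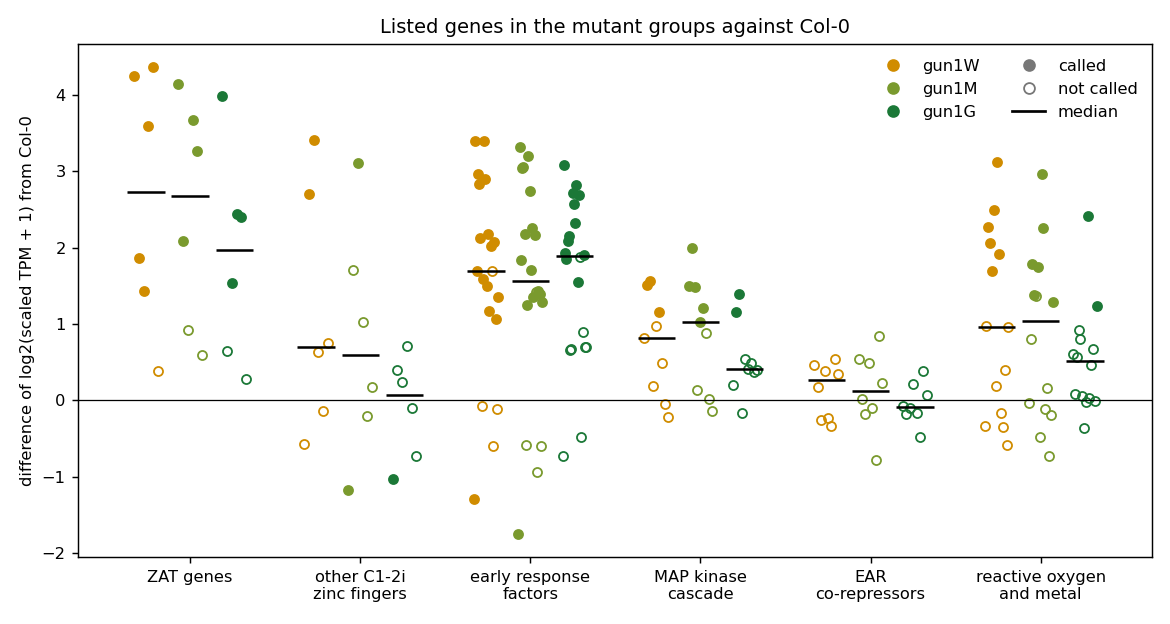
Difference of log2(scaled TPM + 1) from Col-0 for every tested gene of 6 lists in *gun1W*, *gun1M* and *gun1G*, with filled points for called genes, open points for others and a line at the median. The early response factors reach medians of 1.70, 1.57 and 1.89 and the EAR co-repressors stay within 1 of 0, with no filled point.

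Genes whose pattern was most like that of a member were sought among 9979 models by Pearson's r of log2(scaled TPM + 1) over the 12 libraries, which share the group differences and the scaling. Nearest to *STZ* were *CYP707A3* (r = 0.98), which encodes an abscisic acid 8'-hydroxylase, *RAP2.4* (0.98), which encodes an ERF-type transcription factor, and AT5G35935 (0.98). *CYP707A3* held 0.659 scaled TPM in Col-0 and 10.9, 11.6 and 9.90 in *gun1W*, *gun1M* and *gun1G*, close to each other in the mutant groups as for *STZ*. Nearest to *ZAT12* were AT3G23170 (0.98), AT3G56880 (0.98) and AT2G27260 (0.97), and nearest to *ZAT6* were AT3G24420 (0.98), AT1G63830 (0.98) and *ADT4* (0.98), which encodes an arogenate dehydratase. AT3G24420 went from 1.75 in Col-0 to 45.6, 41.1 and 15.0 scaled TPM in the 3 mutant groups. For *ZAT11* they were *CRK18* (0.97), which encodes a cysteine-rich receptor-like kinase, AT5G45630 (0.97) and AT5G46910 (0.96). For *AZF1* they were *ACA.l* (0.94), AT2G40270 (0.94) and AT1G56140 (0.91). *AZF2* was followed by *PUB23* (0.96), which encodes a U-box ubiquitin ligase of the drought and immune response, AT1G74450 (0.94) and *ACS6* (0.93), which encodes an ethylene biosynthesis enzyme. After the group means were taken off, r with *AZF2* was still 0.97 for *PUB23*, 0.96 for AT1G74450 and 0.97 for *ACS6*, so that these genes shared its high replicate 1 in *gun1W* and *gun1M*. The same r was 0.94 to 0.97 for the genes named with *AZF1*, 0.87 to 0.92 with *ZAT6* and 0.73 to 0.76 with *ZAT12*. With *ZAT11* it was only 0.51 to 0.54, and with *STZ* 0.75, 0.64 and 0.059 in the order given. All these genes were picked by r over the same libraries. The genes nearest to the mean of the 6 members were AT2G27080, *TIP* and *RAP2.4*, each with r = 0.98, and with 0.42, 0.43 and 0.44 after the group means were taken off.

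The 250 bases before the annotated start of each gene were searched on both strands for 8 motifs of stress promoters. The upstream sequences of *STZ* and *ZAT6* are shown because both held a C-repeat and a GCC box, and that of *ZAT12* for its heat shock element. They are given 5′ to 3′ toward the gene, in TAIR10.1 from RefSeq, with the motif matches in capitals.
STZ: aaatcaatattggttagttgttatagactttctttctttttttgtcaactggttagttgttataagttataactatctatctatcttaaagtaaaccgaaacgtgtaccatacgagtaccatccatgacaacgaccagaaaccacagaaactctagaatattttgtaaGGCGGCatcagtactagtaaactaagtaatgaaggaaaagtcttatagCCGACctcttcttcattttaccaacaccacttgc
ZAT6: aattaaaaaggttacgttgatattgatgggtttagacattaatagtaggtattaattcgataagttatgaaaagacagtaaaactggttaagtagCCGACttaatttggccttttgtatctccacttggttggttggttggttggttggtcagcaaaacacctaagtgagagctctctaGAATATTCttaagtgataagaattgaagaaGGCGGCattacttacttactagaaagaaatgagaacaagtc
ZAT12: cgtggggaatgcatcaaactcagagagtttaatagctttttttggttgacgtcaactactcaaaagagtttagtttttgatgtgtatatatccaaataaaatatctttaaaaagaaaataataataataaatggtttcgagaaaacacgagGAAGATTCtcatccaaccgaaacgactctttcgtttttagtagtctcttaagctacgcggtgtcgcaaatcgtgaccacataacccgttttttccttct
The C-repeat (CCGAC), the site of CBF and DREB factors, was found in *STZ* (34 bases before the start), *ZAT6* and *AZF2*, and in 11.97% of 27443 promoters of the same length. The GCC box (GCCGCC), the site of ERF factors, was found in *STZ* and *ZAT6*, in both as its reverse complement, and in 1.87% of all promoters. The heat shock element (GAANNTTC) was found in *ZAT12*, *ZAT6* and *ZAT11*, and in 9.55% of all. The W-box of WRKY factors was found as TTGACC in *ZAT11* and *AZF2* (12.2% of all), where in *AZF2* it overlapped the C-repeat, and as TTGACT in *AZF1* (19.1%). The rapid stress response element (CGCGTT), the G-box (CACGTG) and the mitochondrial dysfunction motif were in 0 of the 6 windows, and in 2.59%, 6.49% and 0.466% of all. *STZ* and *ZAT6*, the pair nearest in sequence, thus held the same 2 motifs. A match is only a run of letters, and no binding was measured.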

How the data were processed

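Per the labels, total RNA was depleted of ribosomal RNA and made into directional libraries. The authors trimmed the reads with Trimmomatic, checked them with FastQC and quantified transcripts with Salmon on the AtRTD3-QUASI transcriptome. The labels also name STAR and the build TAIR10, and versions are not given in the sources used here. The deposited values are TPM per transcript, which sum to 1000000 in each library and keep no read depth. A second deposited table of plastid transcripts was not used. All 12 columns were matched to samples by name.

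Gene levels are sums of TPM over transcripts, times a factor for each library. The factor sets to 0 the median log2 ratio of its nuclear models to the average library, over models that reach 1 TPM in all 12 libraries. Non-plastid models that reached 1 TPM in 3 or more libraries were tested on log2(scaled TPM + 1) with limma 3.58.1 (R 4.3.3, empirical Bayes with trend, 4 groups in 1 fit). This script was tested on simulated data. The value of 1 added before the log understates changes of low genes. The exact permutation test was written out in Python 3.11.15 with numpy 2.4.6.

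The members and the gene lists were chosen with earlier results of these data known. Named beside the members were, per list, up to 4 genes with the smallest adjusted p against Col-0, any other called C1-2i gene, and the 3 genes most like each member with a mean of at least 5 scaled TPM in at least 1 group. Listed genes with another symbol in RefSeq were left out. Alternatives covered the added value, the filter, the scaling, the trend, the samples in the fit, the replicate block, the share of AT3G06365 as a covariate, and leaving out each library. Sequences and coordinates came from RefSeq TAIR10.1. Of 18 pairs of libraries with the same number, 4 deviated together (r over 0.1), so the numbers were not taken as pairs.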

Additional observations from a re-analysis of the deposited data

How the results depend on the processing

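TPM carry no depth, so the error of low values such as those of *ZAT11* and *AZF1* is known only from 3 libraries a group. Of 828 alternative values of the members' differences, 783 kept their direction and their side of the threshold, 18 lost and 9 gained a call and 18 changed sign, all between mutant groups and none of them called. For the other named genes 1310 of 1374 did so, 31 lost and 26 gained a call and 7 changed sign. The causes were not tested. With the replicate block the members' counts were those of the main fit and 2165, 2384 and 817 models were called in *gun1W*, *gun1M* and *gun1G* against Col-0, against 2177, 2385 and 840 without it.

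The TPM as deposited moved the median difference of all models from Col-0 by 0.82 in white cotyledons, 0.19 in marbled ones and 0.03 in green ones, and equal nuclear totals by 0.19, 0.17 and 0.17. The share of calls that were higher went from 63.7%, 58.8% and 67.6% to 97.6%, 78.0% and 72.3% as deposited and to 78.9%, 74.2% and 85.8% with equal nuclear totals. As deposited, 7093 models were called in *gun1W*. With 5 added before the log, 979, 1010 and 325 models were called in *gun1W*, *gun1M* and *gun1G*.

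Members called in *gun1W* against *gun1G* went from 2 to 1 with 0.1 or 5 added or with AT3G06365 as a covariate, and to 4 as deposited. Those gained as deposited were *STZ*, at 1.23, and *ZAT6*, at 2.12. In *gun1M* against *gun1G* they went from 1 to 0 with 0.1 or 5 added, and in *gun1W* against *gun1M* from 0 to 2 as deposited. With libraries left out in turn, 4 to 5 members were called in *gun1W*, 4 in *gun1M*, 2 to 4 in *gun1G* and 2 to 3 in *gun1W* against *gun1G*.

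With 5 added, early response factors called fell from 16 to 10 in *gun1W* and to 9 in *gun1M*. MAP kinase genes called in *gun1W* went from 3 to 5 with 0.1 added, 1 with 5 added and 7 as deposited (3 to 5 with libraries left out), in *gun1M* from 5 to 2 with 5 added, and in *gun1G* from 2 to 0 with 5 added and 1 with the covariate (0 to 2 with libraries left out). EAR co-repressors called went from 0 to 5 in *gun1W* as deposited, and from 0 to 1 in *gun1M* with 0.1 added, as deposited or with equal nuclear totals. Reactive oxygen and metal genes called went from 6 to 3 in *gun1M* with 5 added, and in *gun1G* from 2 to 1 with 5 added, with TPM above 0 as the filter, with only the 2 groups in the fit or with the covariate (1 to 2 with libraries left out). Other C1-2i genes called in *gun1W* went from 2 to 1 with either other filter (1 to 2 with libraries left out), in *gun1M* from 2 to 1 and in *gun1G* from 1 to 0 with 5 added, as deposited or with equal nuclear totals (0 to 2 in *gun1G* with libraries left out).

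Signs changed in small differences. As deposited, the *gun1W* difference from Col-0 became 0.40 for AT2G28200 and 0.69 for *HDA19*, that from *gun1M* became 0.40 for *ZAT11*, 0.68 for *ZAT6* and 0.37 for *AZF1*, and that from *gun1G* became 0.87 for *AZF2*. With the covariate, *ZAT6* was at 0.47 in *gun1W* against *gun1M* and *AZF1* at -0.11 in *gun1W* against *gun1G*, and with equal nuclear totals *TPL* was at 0.15 in *gun1G*. With libraries left out in turn, *gun1W* against *gun1M* ran over -0.037 to 0.38 for *STZ*, -0.41 to 0.51 for *ZAT6* and -0.51 to 0.15 for *AZF1*, *gun1W* against *gun1G* over -0.59 to 0.21 for *AZF2* and -0.070 to 0.30 for *AZF1*, and *gun1M* against *gun1G* over -0.13 to 0.29 for *STZ* and -0.050 to 0.61 for *AZF1*. Against Col-0, *TPL* ran over -0.19 to 0.0099 and *APX2* over -0.026 to 0 in *gun1G*, and *AZF3* over -0.13 to 0.40 in *gun1M*.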
